A study of Mus musculus with 36 samples.

Results

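Integrins are adhesion receptors made of 1 alpha and 1 beta chain, and 10 of their subunit genes are described here across sorted mouse brain cells: Itgav, which encodes alpha V (CD51), its beta partners Itgb1, Itgb3, Itgb5 and Itgb8, the leukocyte pair Itgam and Itgb2, and Itga6, Itgb4 and Itga7, whose chains form laminin receptors. They were taken by name from 25454 genes with a value, 27 of which were the integrin subunit genes listed for this work. The samples were cells from brains of C57/Bl6 mice, all labelled astrocyte, sorted into populations lettered A to E and one called Neg, from brainstem, olfactory bulb and cortex. Each of the 18 combinations of population and region had 2 libraries, 36 in all. No genotype, age or treatment is given, the series text calls the samples cell lines, and nothing says whether the 2 libraries of a group came from different animals, so p-values measure the spread between libraries, which may be technical. CD51 is known as one of the surface antigens used in sorting such populations, but the labels do not say which antigens define each letter or Neg. For that reason the levels of Itgav by population are described without a test, and 9 genes enter the tests between populations.

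Alpha V pairs with beta 1, 3, 5, 6 or 8, and these receptors bind vitronectin and other proteins that carry an RGD sequence. Alpha V with beta 8 is known in brain for releasing active TGF-beta from its latent complex, and mice that lack it in neural cells have malformed brain vessels. Alpha M with beta 2 is complement receptor 3 (CD11b/CD18), the classical surface marker of microglia and other myeloid cells. Alpha 6 pairs with beta 1 or beta 4, and alpha 7 with beta 1, as receptors for the laminins of basement membranes.

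The deposited values are FPKM (mapped fragments scaled for transcript length and library size), summed here over the transcripts of a gene. Their sum over nuclear genes differed between libraries, at 21757.2 to 144404.1, and 8 libraries had fewer than 5000 genes at 1 FPKM or more. Read coverage per FPKM, a measure of depth, was 0.0695 in brainstem E replicate 1 and 0.316 in olfactory bulb E replicate 1, against 1.17 to 4.08 in the other 34 libraries. For transcripts near 10 FPKM, the 95% bounds in the authors' files lay 63.0% and 35.2% either side of the value in those E libraries and 10.1% to 16.5% in the others. Results are therefore given on the deposited scale and after rescaling every library to the same sum. The mean log2(FPKM + 1) of 7 olfactory ensheathing glia markers was 6.46 in brainstem D replicate 2 and 5.50 in cortex E replicate 2, within the range of the olfactory bulb libraries of A to E (3.62 to 6.64), while the other brainstem libraries reached at most 4.16 and the other cortex libraries at most 3.01. Results by region are given with and without these 2. The astrocyte label held least for Neg: the mean log2(FPKM + 1) of 18 astrocyte markers ranged from 3.30 to 6.94 in the libraries of A to E and from 1.58 to 3.64 in Neg. Library numbers in the labels fall in 2 runs, and whether these are batches is not stated. All D and E libraries, 2 of A and 1 of B carry numbers of the second run, so for D and E the run and the population cannot be told apart. Only cortex A, brainstem A and brainstem B hold a library of each run, so a term for the run rests on these groups alone.

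Itgav was detected in the most libraries of the 10 genes, at 1 FPKM or more in 35 of 36 libraries and at 0 in none. B libraries held 10.5 and 18.8 FPKM in brainstem, 11.7 and 7.12 FPKM in olfactory bulb, and 12.2 and 16.7 FPKM in cortex. Neg libraries held 0.607 and 1.34 FPKM in brainstem, 5.36 and 6.89 FPKM in olfactory bulb, and 4.23 and 1.81 FPKM in cortex. On the deposited scale every B library was above every Neg library, but after rescaling they overlapped, with the lowest B library at 5.01 and Neg libraries up to 10.3. Medians were 7.78 FPKM in A, 10.4 in C, 9.30 in D and 5.70 in E, against 3.02 in Neg, and that of B lay between its values of 11.7 and 12.2 FPKM. By mean FPKM the order was B, C, D, A, E and Neg, and each population overlapped its neighbour in that order. After rescaling, the order became D, E, B, A, C and Neg, again with every pair of neighbours overlapping, so the place of the lettered populations relative to each other turned on the scale, while Neg was last on both. In bulk libraries, fewer cells of a type and less RNA per cell cannot be told apart.

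The gene lies at chr2:83724397-83806916 on the plus strand (GRCm38), and 93.9% of its FPKM was in the transcript that spans the whole gene. In brainstem B replicate 2, however, 10.6 of 18.8 FPKM lay in a shorter transcript, and the spanning one held 8.24 FPKM. In cortex E replicate 1, 8.425 of 10.752 FPKM lay in another shorter transcript, and the spanning one held 2.33 FPKM. Both shorter transcripts were listed at 0 in every other library, and the Itgav values and orders given here include them. The promoters of 4 genes are printed. Itgav encodes alpha V, and Itgb8 was the largest of its partner genes in 19 of 36 libraries. Itgb5 and Itgam were both called higher in population B below. RefSeq (GRCm38.p6) held promoters for 5 of the 10 genes, each covering 250 bases before to 50 after the transcription start. Itgav is at chr2:83724147-83724446, Itgb5 at chr16:33829415-33829714 and Itgam at chr7:128062390-128062689, all on the plus strand, and Itgb8 at chr12:119238227-119238526 on the minus strand. Capitals mark GAGGAA, the core of the purine box bound by the myeloid factor PU.1, and GGGCGG, the GC box bound by Sp1, on either strand (a match on the other strand reads TTCCTC or CCGCCC).
Itgav: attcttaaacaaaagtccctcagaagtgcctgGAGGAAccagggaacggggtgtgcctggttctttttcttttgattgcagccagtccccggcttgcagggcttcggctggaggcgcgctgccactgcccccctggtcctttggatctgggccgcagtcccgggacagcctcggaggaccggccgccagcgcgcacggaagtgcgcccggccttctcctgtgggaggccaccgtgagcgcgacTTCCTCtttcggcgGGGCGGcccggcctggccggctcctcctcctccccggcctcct
Itgb8: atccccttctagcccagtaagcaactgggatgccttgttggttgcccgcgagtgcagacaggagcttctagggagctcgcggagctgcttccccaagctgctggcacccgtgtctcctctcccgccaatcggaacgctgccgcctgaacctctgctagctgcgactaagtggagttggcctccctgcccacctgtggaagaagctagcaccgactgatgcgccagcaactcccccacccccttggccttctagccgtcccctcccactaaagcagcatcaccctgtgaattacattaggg
Itgb5: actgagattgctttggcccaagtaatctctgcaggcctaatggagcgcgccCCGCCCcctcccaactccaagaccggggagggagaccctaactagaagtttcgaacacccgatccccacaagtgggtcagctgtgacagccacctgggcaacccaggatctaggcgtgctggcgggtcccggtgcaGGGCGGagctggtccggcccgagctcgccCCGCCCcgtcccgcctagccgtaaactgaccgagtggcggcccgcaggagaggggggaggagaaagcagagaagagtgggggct
Itgam: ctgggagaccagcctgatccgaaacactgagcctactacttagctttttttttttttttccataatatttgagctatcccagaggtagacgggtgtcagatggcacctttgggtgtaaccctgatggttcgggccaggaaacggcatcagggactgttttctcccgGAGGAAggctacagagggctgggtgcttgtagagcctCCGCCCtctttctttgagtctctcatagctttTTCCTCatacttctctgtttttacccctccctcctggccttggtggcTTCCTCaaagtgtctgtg
The Itgam promoter held 3 matches to GAGGAA and 1 to GGGCGG, that of Itgav held 2 and 1, and that of Itgb5 held none and 3. The Itgb8 promoter held neither, and that of Itgb1, which is not printed, held 1 of each. Of 32851 mouse promoters of the same length, 28.3% held GAGGAA and 35.7% held GGGCGG, so these are common words, and a match is a description of the letters and not a binding site.

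Among the genes for alpha V partners, Itgb8 and Itgb1 made up most of the FPKM in most libraries. Shares were taken within each library over Itgb1, Itgb3, Itgb5, Itgb6 and Itgb8, so they do not depend on how a library is scaled. Itgb8 was the largest of the 5 in 19 of 36 libraries, Itgb1 in 15 and Itgb5 in 2, both of the last being B libraries. Where Itgb8 was largest, brainstem Neg replicate 2 and brainstem E replicate 2 held only 0.376 and 0.383 FPKM of it. In brainstem B replicate 2 its lead over Itgb1 (10.3 FPKM) rested on a row at 31.6 FPKM, listed at 0 in every other library. The main Itgb8 row held 8.39 FPKM there. The median share of Itgb8 was 51.5% in A, 38.9% in B, 47.8% in C, 44.7% in D and 37.5% in E, against 39.9% in Neg. The median share of Itgb1 was 36.7% in A, 24.5% in B, 24.8% in C, 49.5% in D and 48.1% in E, against 39.3% in Neg. Itgb5 had median shares of 17.0% in A, 27.1% in B, 23.7% in C, 3.68% in D and 7.83% in E, against 10.9% in Neg. It reached 46.0% in brainstem B replicate 1 and 45.1% in cortex B replicate 1, and all ranges overlapped. Itgb3 had a median share of at most 4.10% in every population, but reached 26.4% in cortex D replicate 2 and 24.8% in brainstem Neg replicate 1. Itgb6, whose chain is known from epithelia, reached 1 FPKM in no library.

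**Figure D1:**
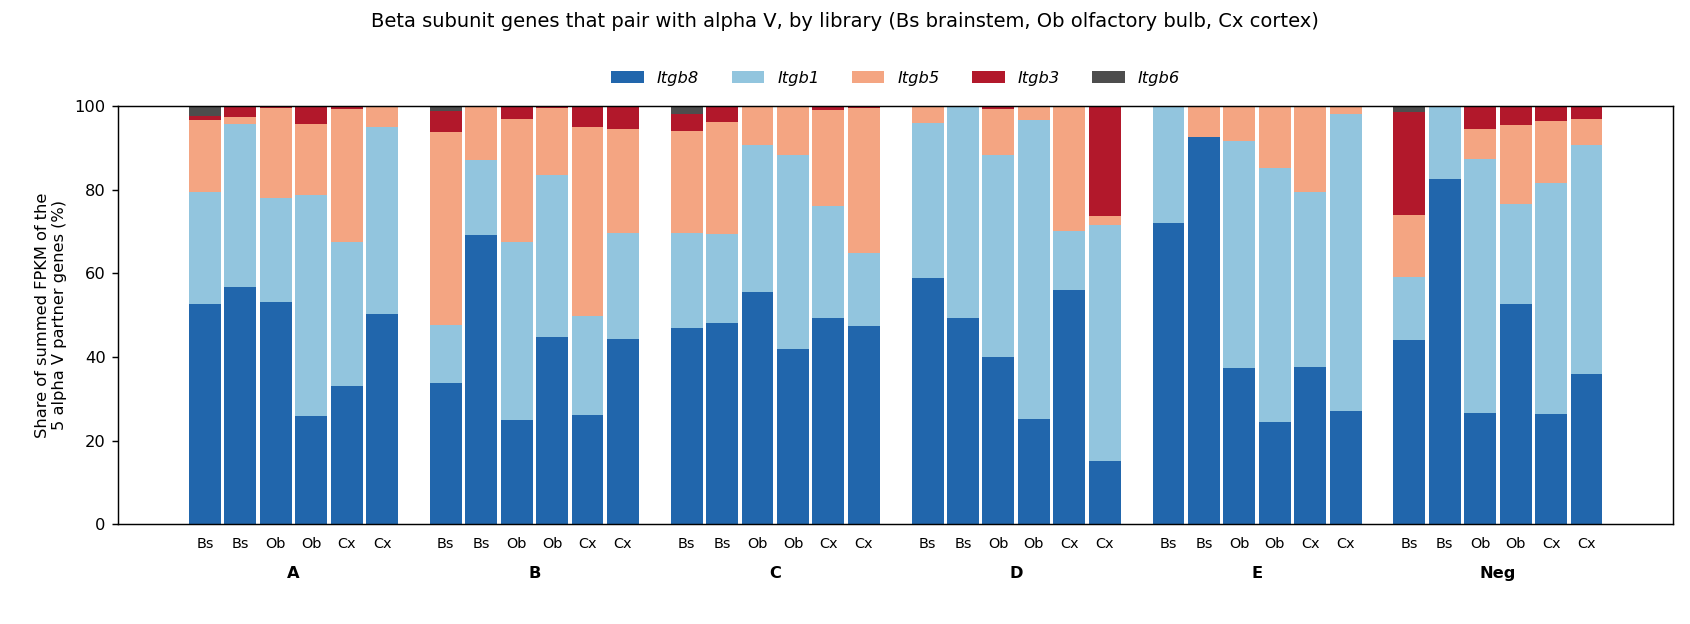
Stacked bars give, for each of 36 libraries, the share (%) of Itgb8, Itgb1, Itgb5, Itgb3 and Itgb6 in their summed FPKM, grouped by population A to E and Neg and, within each, by brainstem, olfactory bulb and cortex. Itgb8 and Itgb1 fill most bars, and Itgb5 takes 46.0% and 45.1% in 2 of the B libraries.

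Itgb8, the partner known for TGF-beta activation, was at 1 FPKM or more in 33 libraries and at 0 in none. In C it was the most even, at 17.2 and 15.6 FPKM in brainstem, 24.9 and 13.8 FPKM in olfactory bulb, and 20.0 and 19.0 FPKM in cortex. In Neg it held 2.45 and 0.376 FPKM in brainstem, 1.95 and 6.09 FPKM in olfactory bulb, and 4.37 and 1.56 FPKM in cortex. The C and Neg libraries did not overlap, but every C library also had a larger FPKM sum (at least 85287.2) than every Neg library (at most 62123.7). After rescaling, the lowest C library was at 10.2 and the highest Neg library at 9.10. How many of all genes part these groups was not counted. Its highest value was 40.0 FPKM, in brainstem B replicate 2. Of this, 31.6 FPKM lay in a row of 1810 bases, short of the whole gene and listed at 0 in every other library. The row that held most of the gene's FPKM was at 8.39 FPKM there. In D, cortex replicate 1 held 26.0 FPKM and cortex replicate 2 held 0.603 FPKM. The E libraries lay between 0.383 and 6.98 FPKM, overlapping Neg along nearly their whole range.

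Itgb1, the most widely shared beta chain of the family, ran from 5.86 to 15.1 FPKM in B and from 6.86 to 15.9 FPKM in C, against 0.079 to 9.22 FPKM in Neg. Its C values in olfactory bulb were 15.9 and 15.3 FPKM. It was listed at 0 in brainstem E replicate 2. Rows that span the whole gene held 62.2% of its FPKM.

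Itgb5, whose chain forms a vitronectin receptor with alpha V, was at 1 FPKM or more in 22 libraries. B libraries held 19.2 and 7.55 FPKM in brainstem, 10.4 and 5.15 FPKM in olfactory bulb, and 14.1 and 13.8 FPKM in cortex. The 24 libraries of A, C, D and E ran from 0 to 13.9 FPKM with a median of 2.64 FPKM, and Neg libraries from 0 to 2.45 FPKM with a median of 0.679 FPKM. All B libraries were above all Neg libraries, whose FPKM sums were all smaller. After rescaling, the lowest B library was at 3.62 and the highest Neg library at 3.37, and how many of all genes part B from Neg was not counted. On both scales 2 B libraries were above every library of the other lettered populations. Cortex D replicate 1 held 13.8 FPKM of Itgb5 while the other D libraries held at most 1.99 FPKM.

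Itgb3, whose chain joins alpha V or, in platelets, alpha IIb, reached 1 FPKM in 8 libraries and was listed at 0 in 13. In B it held 2.18 and 0 FPKM in brainstem, 1.08 and 0.172 FPKM in olfactory bulb, and 1.61 and 3.08 FPKM in cortex. It was listed at 0 in all 6 E libraries. Neg libraries ran from 0 to 1.38 FPKM, so B and Neg overlapped.

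**Figure D2:**
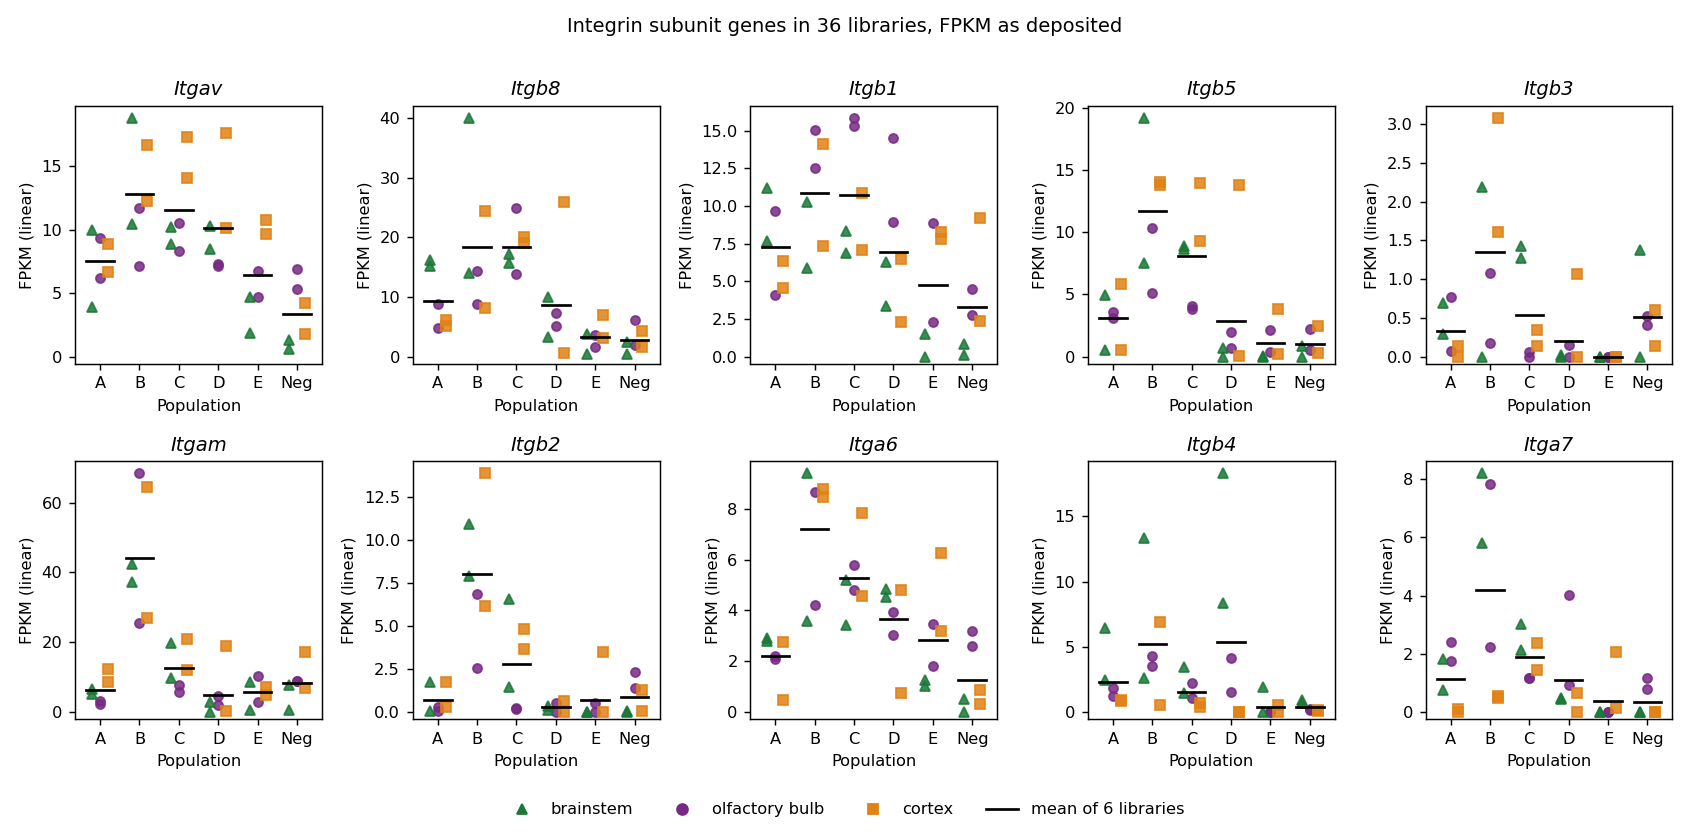
Each panel plots FPKM as deposited (linear axis) of 1 integrin gene in 36 libraries, by population A to E and Neg, with triangles for brainstem, circles for olfactory bulb, squares for cortex and a black line for the mean of 6 libraries. Itgam in B lies between 25.5 and 68.4 FPKM, above all other libraries, and the groups overlap in most other panels.

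Itgam and Itgb2, the genes of complement receptor 3, had the 2 largest log2 differences between B and the other lettered populations among the 9 genes tested. Itgam held 37.2 and 42.4 FPKM in brainstem B, 25.5 and 68.4 FPKM in olfactory bulb B, and 26.9 and 64.5 FPKM in cortex B. The 24 other lettered libraries ran from 0.07 to 21.0 FPKM with a median of 6.25 FPKM, and the 6 Neg libraries from 0.667 to 17.2 FPKM with a median of 8.27 FPKM. On the deposited scale every B library was above every other library, whereas after rescaling the lowest B library was at 19.9 and the highest of the other lettered libraries at 20.1, and 3 of the 6 Neg libraries, at 22.0, 23.6 and 27.5, were above that B library. Itgb2 held 10.9 and 7.91 FPKM in brainstem B, 6.85 and 2.54 FPKM in olfactory bulb B, and 6.15 and 13.9 FPKM in cortex B. It ran from 0 to 6.56 FPKM in the other lettered libraries, with a median of 0.305 FPKM, and from 0 to 2.31 FPKM in Neg, with a median of 0.661 FPKM. Of the 6 B libraries, 4 were above every other lettered library.

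Per length of transcript, Itgam was higher than Itgb2 in 35 of 36 libraries, although their chains form one receptor. The median ratio of Itgb2 to Itgam was 0.0678 in A, 0.222 in B, 0.191 in C, 0.0766 in D and 0 in E, against 0.0702 in Neg. Itgb2 was under 1 FPKM in 20 libraries, and in 10 of these Itgam was at 5 FPKM or more. In population E, Itgb2 was listed at 0 in 4 of 6 libraries, in which Itgam held 0.672, 2.99, 7.25 and 8.55 FPKM. All of the Itgam FPKM was in transcripts that span the gene, and 78.8% of that of Itgb2.

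The microglial markers moved with these genes. The mean log2(FPKM + 1) of 18 microglial genes, a list that holds neither Itgam nor Itgb2, was 5.16 to 6.33 in B, 0.59 to 4.86 in the other lettered libraries and 1.38 to 3.74 in Neg, and none of the 18 was at 0 throughout B. Their summed FPKM was 1110 to 2050 in B, 19.3 to 879 in the other lettered libraries and 54.3 to 332 in Neg. Markers of neutrophils and monocytes were low in all populations, with a summed FPKM of at most 8.53 in B, 14.4 in the other lettered libraries and 12.6 in Neg. Astrocyte markers in B had means of 5.27 to 6.93. All 18 microglial genes were called higher in B on the deposited and the rescaled scale. The part of these cells in the B values was not tested.

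**Figure D3:**
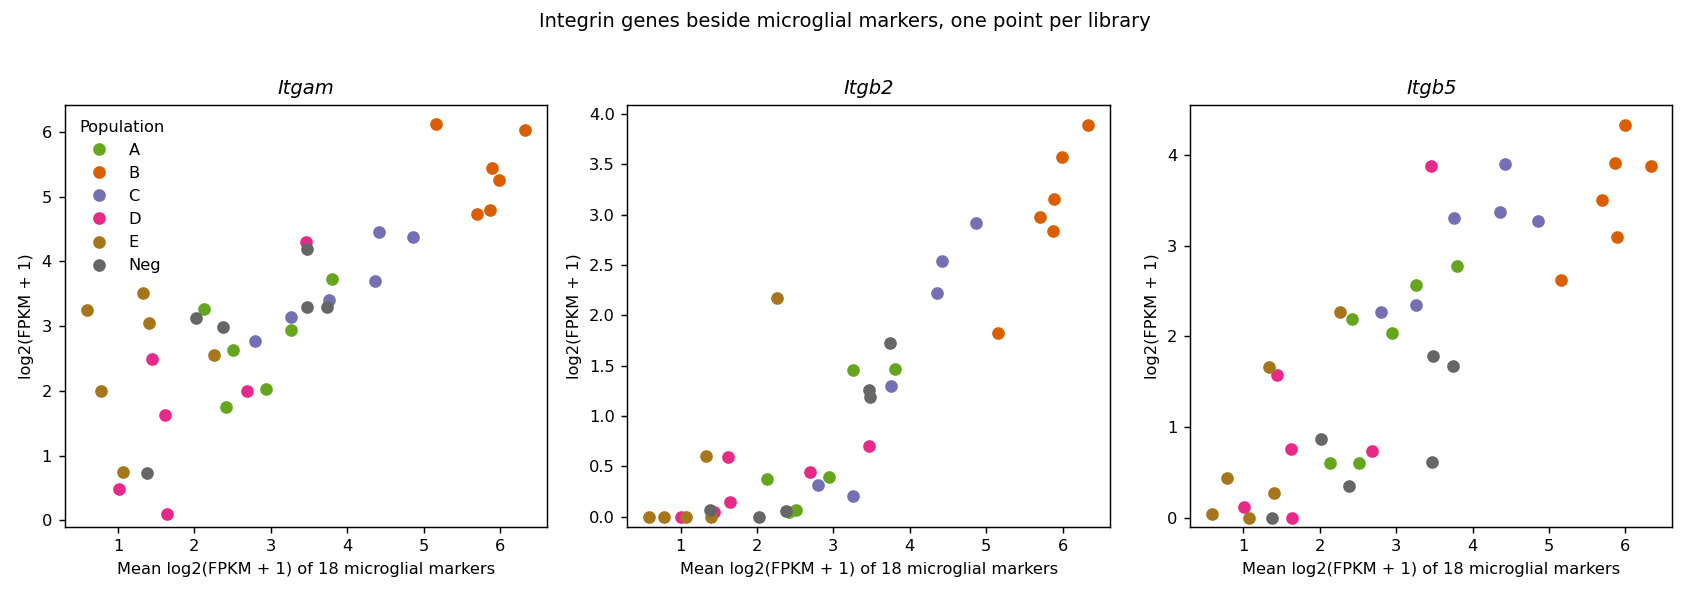
Each point is 1 library, with the mean log2(FPKM + 1) of 18 microglial markers on the x axis, log2(FPKM + 1) of Itgam, Itgb2 or Itgb5 on the y axis and colour for the population. The 6 B libraries lie at marker means of 5.16 to 6.33, right of all others (at most 4.86).

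Against the mean of the other 4 lettered populations, B had 7 of the 9 tested integrin genes higher on the deposited scale and none lower (limma, Benjamini-Hochberg adjusted p under 0.05). In the same comparison 15.4% of all 13576 genes were called higher and 0.354% lower. After rescaling, 4 of 9 were higher, beside 5.53% of all genes, and after quantile normalization 3 of 9, beside 4.02%. The median log2 difference of the 9 genes was 1.07 as deposited, 0.70 rescaled and 0.44 after quantile normalization, against 0.35, 0.13 and -0.051 over all genes. Itgb2 was higher by 2.29 ± 0.31 (log2, SE, adjusted p = 5.73e-06), and by 1.98 ± 0.33 rescaled (adjusted p = 0.000193). Itgam was higher by 2.72 ± 0.45 (adjusted p = 8.86e-05), and by 2.19 ± 0.41 rescaled (adjusted p = 0.000819). These 2 calls held in each of 50 alternatives run.

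Itgb5 was higher in B by 1.85 ± 0.42 (limma, adjusted p = 0.00306), by 1.53 ± 0.42 rescaled (adjusted p = 0.0244) and by 1.28 after quantile normalization (adjusted p = 0.02). With a term for the run of library numbers its difference was 1.10 (adjusted p = 0.21), in the first run alone 0.98 (adjusted p = 0.0837), and rescaled without the libraries of fewer than 5000 genes 1.16 (adjusted p = 0.0559). Itga7 was higher by 1.10 ± 0.26 as deposited (adjusted p = 0.0038) and by 0.91 ± 0.26 rescaled (adjusted p = 0.0316), but by 0.68 after quantile normalization (adjusted p = 0.0586) and by 0.75 in the first run alone (adjusted p = 0.109). Itgb3, Itgb4 and Itga6 were called on the deposited scale alone, at 0.78, 1.07 and 0.93, and their rescaled differences were 0.62, 0.70 and 0.48 (adjusted p = 0.185, 0.294 and 0.412). Itgb8 and Itgb1 were not called in B on any of the 3 scales, with differences of 1.02 ± 0.42 and 0.66 ± 0.32 as deposited. Without olfactory bulb B replicate 1, or without cortex B replicate 2, the count of 7 became 4.

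**Figure D4:**
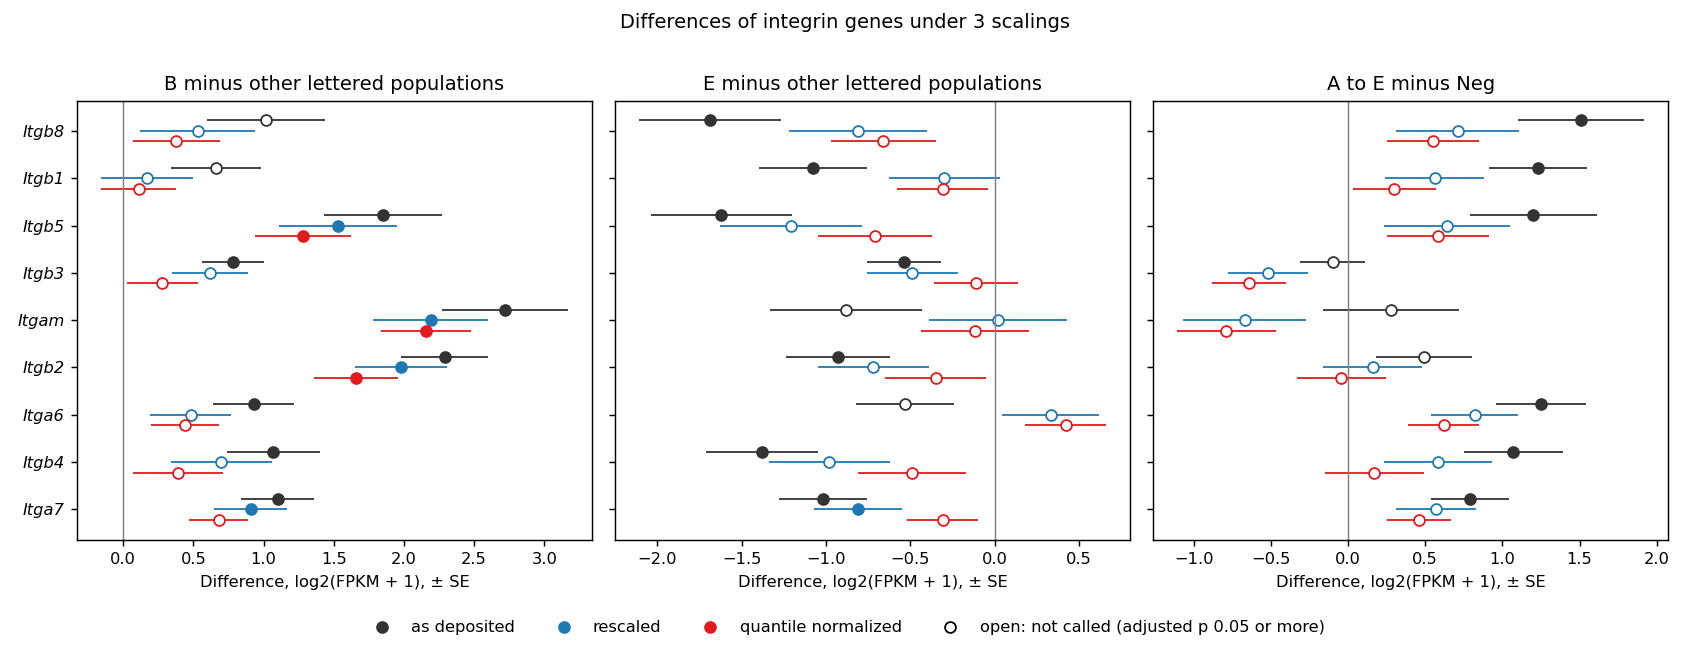
Points with bars give the log2(FPKM + 1) difference ± SE of 9 integrin genes for B and E against the other lettered populations and for A to E against Neg, on 3 scales, filled where limma called them (adjusted p under 0.05). Itgam, Itgb2 and Itgb5 are filled on all 3 scales for B, and no gene is filled after rescaling or quantile normalization for A to E against Neg.

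E went the other way on the deposited scale. Of the 9 genes, 7 were lower than in the other lettered populations and none higher, beside 42.5% of all genes called lower and 0.103% higher. Itgb8 fell by 1.69 ± 0.42 (limma, adjusted p = 0.00345), and Itgb4 was lower by 1.38 ± 0.33 (difference -1.38, adjusted p = 0.0023), with Itgb1, Itgb3, Itgb5, Itga7 and Itgb2 the other 5. The median difference over all genes in this comparison was -0.66 as deposited and -0.31 after rescaling, and that of the 9 genes -1.02 and -0.72. After rescaling, only Itga7 of the 9 was called, at -0.81 ± 0.26 (adjusted p = 0.0432), beside 10.4% of all genes, and none was called after quantile normalization, where 4.16% of all genes were lower. Without the 8 libraries with fewer than 5000 genes, 3 of which are of E, none was called. Without olfactory bulb E replicate 1, 4 were called in place of 7. Microglial markers were also lower in E, 17 of 18 as deposited and 13 of 18 rescaled, and astrocyte markers 16 and 4 of 18; their part in the E values was not tested.

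Populations A, C and D had no integrin gene called against the other lettered populations. In A no gene of any kind was called (0%). At an unadjusted p under 0.05 there were 481 of 13576 genes, a smaller share than that threshold passes by chance. Itga6 and Itgb2 were among them, both at an adjusted p of 0.999 (limma). In C 7.61% of all genes were called, and Itgb8 and Itgb5 stood at 1.27 (limma, adjusted p = 0.0582) and 1.25 (adjusted p = 0.0613). In D 0.103% of all genes were called, and Itgam stood at -1.73 (adjusted p = 0.165), Itgb2 at -1.11 (adjusted p = 0.21) and Itgb5 at -1.12 (adjusted p = 0.439). Cortex D replicate 1 held 18.8 FPKM of Itgam while the other 5 D libraries held 0.07 to 4.61 FPKM. Without that library the differences in D were -2.37 for Itgam and -1.75 for Itgb5. It stands apart in these same genes, and leaving it out leaves 1 library of cortex D, so these values are a description. Without brainstem D replicate 1, Itgam stood at -2.05. Of 49 alternatives, 2 called Itgam in D and 1 called Itgb5. In C, Itgb8 was called in 4 of 50 alternatives and Itgb5 in 6 of 50. Both sets include the fit without cortex D replicate 1, where Itgb8 stood at 1.44 and Itgb5 at 1.41. Itgb8 was also called without cortex D replicate 2, and Itgb5 without cortex A replicate 1, brainstem A replicate 1, brainstem B replicate 1 or cortex E replicate 1. Each of these fits leaves 1 library in a group. The remaining calls came from fits that drop no library: both genes with array weights, and Itgb8 with rows that span the whole gene only. These C values are on the deposited scale, where the median of all genes in C was 0.39 and that of the 9 genes 0.49. After rescaling the medians were 0.084 and 0.06, Itgb8 stood at 0.68 (adjusted p = 0.708) and Itgb5 at 0.85 (adjusted p = 0.578), and none of the 9 was called. In cortex D replicate 1 the mean log2(FPKM + 1) of the 18 astrocyte markers was 6.80, the highest of D, and that of the microglial markers 3.46, also the highest of D.

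The lettered populations together differed from Neg in 6 of the 9 genes as deposited, all higher, beside 20.2% of all genes called higher and 0.14% lower. They were Itgb8 at 1.51 ± 0.41, Itga6 at 1.25 ± 0.29, Itgb1 at 1.23 ± 0.32, Itgb5 at 1.20 ± 0.41, Itgb4 at 1.07 ± 0.32 and Itga7 at 0.79 ± 0.25 (limma, adjusted p between 0.00454 and 0.0403). None of the 9 was called after rescaling, where 2.64% of all genes were higher, nor after quantile normalization, where 2.92% were. The median over all genes was 0.50 higher in the lettered populations as deposited and 0.17 after rescaling, and that of the 9 genes 1.07 and 0.57. Itgam and Itgb2 were not called, at 0.28 and 0.49 as deposited, and Itgam stood at -0.67 after rescaling. In the first run of library numbers, which holds only A, B and C beside Neg, both were called, at 1.01 (adjusted p = 0.0242) and 1.20 (adjusted p = 0.00291). Between 1 and 6 genes were called when a single library was left out: 1 without cortex Neg replicate 2 or brainstem Neg replicate 2, 2 without olfactory bulb Neg replicate 1, and 3 without olfactory bulb Neg replicate 2 or brainstem Neg replicate 1. Astrocyte markers moved with this comparison, 18 of 18 being higher as deposited and 13 of 18 rescaled; their part in it was not tested.

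Of the laminin receptor genes, Itga6, known from endothelial and neural stem cells, was at 1 FPKM or more in 30 libraries. It ran from 3.57 to 9.39 FPKM in B, from 3.42 to 7.81 FPKM in C and from 0.478 to 2.92 FPKM in A, against 0 to 3.19 FPKM in Neg. The rows assigned to Itga6 held 53.49% of the FPKM at its locus, the rest lying mostly in a short row at its 3′ end, and with those rows added its difference in B was 0.37 (limma, adjusted p = 0.578). Itga7, the laminin receptor chain known from muscle, reached 1 FPKM in 16 libraries. In B it held 5.79 and 8.20 FPKM in brainstem and 7.83 and 2.22 FPKM in olfactory bulb, but 0.477 and 0.537 FPKM in cortex. It was listed at 0 in 4 of 6 E libraries and 4 of 6 Neg libraries. Of its FPKM, 66.2% was in 1 row of 1116 bases, and in rows that span the gene its difference in B was 0.55 (limma, adjusted p = 0.0564).

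Itgb4, whose chain pairs with alpha 6 in the hemidesmosomes of epithelia, was the only one of the 10 genes that differed by region, higher in brainstem than in cortex. In brainstem it held 6.41 and 2.44 FPKM in A, 2.57 and 13.3 FPKM in B, 3.49 and 1.48 FPKM in C, 8.32 and 18.3 FPKM in D, and 1.91 and 0 FPKM in E. In cortex it held 0.857 and 0.884 FPKM in A, 0.558 and 6.90 FPKM in B, 0.703 and 0.42 FPKM in C, 0 in both libraries of D, and 0.533 and 0 FPKM in E. It was at 1 FPKM or more in 9 of 10 brainstem libraries and in 1 of 10 cortex libraries of A to E, and the ranges overlapped through cortex B replicate 2 and brainstem E replicate 2. The difference was 1.55 ± 0.32 as deposited (limma, adjusted p = 0.00527) and 1.54 rescaled (adjusted p = 0.0131), and 1 of the 10 genes was called, beside 0.479% of all genes called higher as deposited and 0.457% rescaled. Without brainstem D replicate 2 and cortex E replicate 2 it was 1.39 (adjusted p = 0.0234), and in the first run of library numbers alone 1.04 (adjusted p = 0.441). Brainstem against olfactory bulb gave 0.92 (adjusted p = 0.0927).

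The difference in Itgb4 was seen in a row for the 3′ part of the gene. One row of 3086 bases at chr11:115992903-116008411 (mm10) held 80.6% of the gene's FPKM, with 0 to 14.2 FPKM in brainstem (median 2.66) and 0 to 5.25 FPKM in cortex (median 0.546). The 2 rows that span the gene held 6.81% and were listed at 0 in all 10 brainstem libraries, and with them alone the difference was -0.14 (limma, adjusted p = 0.837). The rows assigned to Itgb4 held 36.77% of the FPKM at its locus, and with the unassigned rows there added the difference was 2.01 (limma, adjusted p = 0.00118). Oligodendrocyte markers had a median over libraries of their mean log2(FPKM + 1) of 5.44 in brainstem (4.46 to 7.21), against 4.43 in cortex (3.99 to 6.73), and none of the 12 was at 0 throughout either. Their summed FPKM was 1610 to 13900 in brainstem and 1420 to 5160 in cortex. Their part in the Itgb4 difference was not tested.

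**Figure D5:**
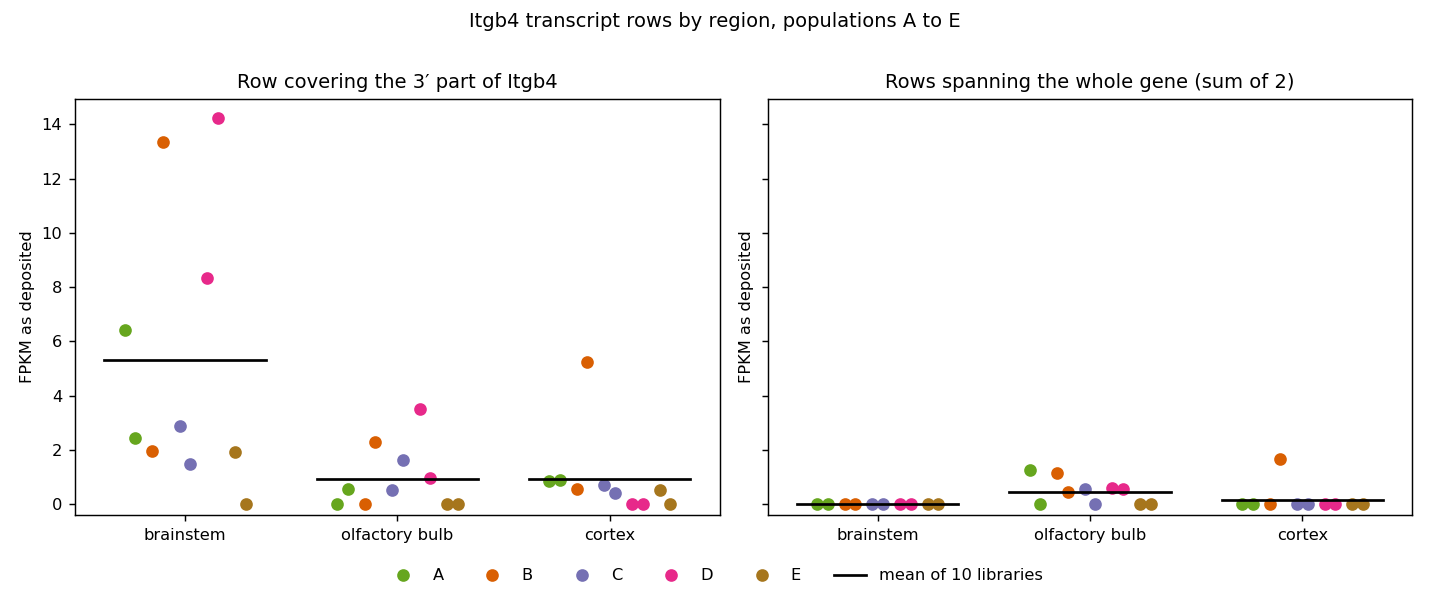
FPKM as deposited of the row for the 3′ part of Itgb4 (left) and of the 2 rows that span the gene (right), by region, with 1 point per library of A to E, colour for the population and a line for the mean of 10 libraries. The left panel reaches 14.2 FPKM in brainstem, and in the right panel all 10 brainstem libraries are at 0.

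The other region differences did not pass the test. Itgav ran from 1.84 to 18.8 FPKM in brainstem (median 9.43) and from 4.68 to 11.7 FPKM in olfactory bulb (median 7.22), against 6.65 to 17.6 FPKM in cortex (median 11.5). Its differences from cortex were -0.58 ± 0.28 in brainstem (limma, adjusted p = 0.441) and -0.57 ± 0.28 in olfactory bulb (adjusted p = 0.328), and without brainstem D replicate 2 and cortex E replicate 2 -0.62 and -0.58. None of the 10 genes was called between olfactory bulb and cortex, beside 3.73% of all genes, or between brainstem and olfactory bulb, beside 5.19%. At an unadjusted p under 0.05 in limma, olfactory bulb against cortex had Itgb2 and Itga7, beside 2081 of all 13576 genes. Brainstem against olfactory bulb had Itgb4 and Itgb1, beside 2611 of 13576. These are near the shares over all genes. Without brainstem D replicate 2 and cortex E replicate 2, Itgb2 was called lower in olfactory bulb than in cortex, at -1.14 (adjusted p = 0.019), against -0.92 (adjusted p = 0.102) with them. No integrin gene had a population difference that depended on region (limma F test with 10 degrees of freedom, adjusted p of the 9 genes at least 0.582), and 0.0147% of all genes did.

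Of the other 17 integrin subunit genes, 6 passed the filter of 1 FPKM in 2 libraries. Itga9, whose chain pairs with beta 1 and binds tenascin-C and osteopontin, was higher in B by 1.10 ± 0.23 (limma, adjusted p = 0.00114) and by 0.89 ± 0.21 rescaled (adjusted p = 0.00963), but after quantile normalization the difference was 0.43 (adjusted p = 0.221). It ran from 0.949 to 7.82 FPKM in B and from 0 to 2.62 FPKM in the other lettered libraries. Itga3, a laminin receptor chain, was higher in brainstem than in olfactory bulb by 0.74 ± 0.22 (adjusted p = 0.0465; 0.75 and adjusted p = 0.0486 without brainstem D replicate 2 and cortex E replicate 2), at 0 to 3.68 FPKM and 0 to 1.11 FPKM. Itga1, a collagen receptor chain, and Itga4, Itga5 and Itga8 were called in no population comparison after rescaling, and their highest values were 4.46, 2.26, 6.01 and 1.61 FPKM. The 11 that failed the filter included Itgax (CD11c) and Itgal (LFA-1 alpha), each at 1 FPKM or more in 1 library, and Itga2b, the platelet alpha IIb chain, in none.

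Among 15 genes of integrin adaptors, 14 were tested, and in B 3 were higher after rescaling and none lower, beside 5.53% of all genes higher, with a median log2 difference of 0.085 against 0.13 over all genes. They were Fermt3, the kindlin of blood cells, at 1.57 ± 0.21 (limma, adjusted p = 1.7e-05), Parvg, the parvin of blood cells, at 2.04 ± 0.33 (adjusted p = 0.000183), and Pxn (paxillin) at 1.56 ± 0.41 (adjusted p = 0.0168). Against Neg, the lettered populations had 2 of 14 higher after rescaling, beside 2.64% of all genes: Fermt2, the kindlin of most adherent cells, at 1.32 ± 0.25 (adjusted p = 0.00229), and Pxn at 1.35 ± 0.40 (adjusted p = 0.0482). In E 2 of 14 were lower after rescaling, a share near the 10.4% of all genes: Ilk, the integrin-linked kinase, at -1.22 (limma, adjusted p = 0.0288), and Fermt3 at -0.69 (adjusted p = 0.0343), which was at -0.25 after quantile normalization (adjusted p = 0.466).

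Of 18 genes for alpha V ligands and the TGF-beta pathway, all tested, 5 were higher in B after rescaling and none lower, beside 5.53% of all genes higher, with a median of 0.50 against 0.13 over all genes. Nrros, which holds latent TGF-beta on microglia, was higher by 2.50 ± 0.27 (limma, adjusted p = 1.84e-06). Tgfb1 was higher by 1.96 ± 0.37 (adjusted p = 0.000819), and the receptor genes Tgfbr1 and Tgfbr2 by 1.67 ± 0.30 and 1.47 ± 0.34 (adjusted p = 0.000515 and 0.00722). The fifth, outside the 4 with the smallest p, was Smad7, a feedback inhibitor of the pathway, at 1.83 (adjusted p = 0.0179). Mfge8, an RGD protein of astrocytes that binds alpha V with beta 3 or beta 5, was higher in the lettered populations than in Neg. The difference was 2.04 ± 0.54 rescaled (limma, adjusted p = 0.028), beside 2.64% of all genes called higher. Mfge8 was lower in E than in the other letters (difference -2.26, adjusted p = 0.0104). In that comparison 42.5% of all genes were lower as deposited and 10.4% rescaled.

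By region, Mfge8 was lower in brainstem than in cortex, at -2.09 ± 0.52 (limma, adjusted p = 0.0301), and Tgfb3 higher there, at 1.55 ± 0.39 (adjusted p = 0.0316). As deposited, 0.479% of all genes were called higher in brainstem than in cortex. Vtn (vitronectin) and Edil3, both ligands of alpha V receptors, were higher in olfactory bulb than in cortex, by 2.33 ± 0.53 and 1.75 ± 0.40 (adjusted p = 0.00799 and 0.00848). Of 10 laminin and dystroglycan genes, Lama4 and Lamc1 were also higher in olfactory bulb than in cortex, by 1.5 ± 0.28 and 1.17 ± 0.28 (adjusted p = 0.00122 and 0.0115). As deposited, 3.73% of all genes were called between these regions in either direction. Without brainstem D replicate 2 and cortex E replicate 2, the differences of these 6 genes were -2.35 for Mfge8, 1.38 for Tgfb3, 2.71 for Vtn, 2.09 for Edil3, 1.67 for Lama4 and 1.26 for Lamc1, all still called (limma, adjusted p between 0.000156 and 0.0393). Lamb2 was higher in B after rescaling, at 1.09 ± 0.33 (adjusted p = 0.0398), the only 1 of the 10, beside 5.53% of all genes, and was at 0.83 after quantile normalization (adjusted p = 0.053). Dag1, which encodes the laminin receptor dystroglycan of astrocyte endfeet, was higher in the lettered populations than in Neg. Its difference was 2.16 ± 0.36 rescaled (limma, adjusted p = 0.000766), beside 2.64% of all genes called higher.

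The genes with the most similar patterns were sought over all 36 rescaled libraries among up to 2896 genes with a mean of at least 5 FPKM, as a description, since libraries share depth and cell content. Among the genes most like Itgb2 were Cx3cr1, Olfml3, Csf1r and Trem2 (Pearson r 0.88 to 0.81), which are in the microglial list. Itgam was most like P2ry13, P2ry12, Fyb, Tgfbr1 and Csf1r (r 0.79 to 0.69). Itgb5 was most like Grn, Sirpa, AI464131, Fgfr3 and Unc93b1 (r 0.83 to 0.77), which include the astrocyte marker Fgfr3 beside Grn, the lysosomal progranulin gene. Itgb8 was most like Gas6, Sema6d, Gstm5, Etv5 and Ckb (r 0.79 to 0.74), and Itgb1 like Arhgap35, Gpd2, Rap1b, Astn1 and Megf10 (r 0.75 to 0.72), the last an astrocyte engulfment receptor. Itga6 was most like Gja1, the connexin of astrocyte gap junctions, M6pr, Lamp1, Dnajc3 and Cd164 (r 0.74 to 0.70). Itgav was most like Mkln1, Mat2a, Copa, Luzp2 and Fermt2 (r 0.68 to 0.59), and Itga7 like Ssr2, Erp29, Slc39a13, Gsn and Sgta (r 0.69 to 0.67). Itgb4 was most like Fa2h, which makes the hydroxylated lipids of myelin (r 0.67), 5031439G07Rik, Zfp386, Tmem147 and Gng11 (r 0.58). Itgb3 had the weakest resemblances, to Ptgs1, H2-Aa, Fosb, Cd180 and Plek (r 0.59 to 0.54).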

How the data were processed

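RNA was extracted from sorted cells, amplified with the NuGEN Ovation V2 kit from random and oligo(dT) primers, which does not mark strand, and sequenced on an Illumina HiSeq, per the labels' protocols. The submitters' processing notes name bcl2fastq 1.8.3, TopHat, Cufflinks and mm10; they give no version of TopHat or Cufflinks. The deposited files hold FPKM and coverage for 63241 transcript rows per library. Coverage, deposited by the authors as a signal per row, was used only to gauge depth. No read counts were used, so limma was run in place of a count model.

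Rows were assigned to GENCODE M21 genes by overlap of their spans (score of at least 0.5, leading the next gene by 0.1). This placed 83.1% of rows, and FPKM was summed per gene. The 10 mitochondrial rows and 1 ribosomal precursor row were left out. Reads of overlapping or antisense genes cannot be told apart. Genes at 1 FPKM or more in 2 libraries (13576) entered limma 3.58.1 (R 4.3.3) as log2(FPKM + 1). The model had 18 group means and 18 residual degrees of freedom; two-sided p-values were adjusted by Benjamini-Hochberg over all 13576. The pseudocount of 1 understates changes of low genes. The code was tested on simulated data.

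The 10 genes and all lists were chosen with earlier results of these data known. All 10 are named, the other integrin subunits past the filter too, and of the other lists at most the 4 genes with the smallest adjusted p, plus the 5 genes most like each of the 10, of which 1 is not reported here. Smad7 and the Itgax, Itgal and Itga2b genes were named after their values were seen. Alternatives covered scaling, pseudocount, filter, transcripts, weights, library runs and libraries left out. Those on whole-gene rows, unassigned rows and rescaling with libraries left out were chosen after seeing the data.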

Additional observations from a re-analysis of the deposited data

Results flagged for a closer look

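In 11 of 59 sets of 6 libraries (1 integrin gene in 1 population), 1 library stood apart from the other 5 beyond the 95% critical value of Dixon's test. The test was run on FPKM as deposited and not on rescaled values. Chance gives this in about 1 in 20 sets of independent normal values. FPKM with zeros, from libraries shared between sets, need not meet that, so the rate by chance here is not known. Cortex D replicate 1 was the library in 4 of these. It held 17.6 FPKM of Itgav against 7.11 to 10.3 in the other D libraries, and 13.8 FPKM of Itgb5 against 0 to 1.99. It also held 26.0 FPKM of Itgb8 against 0.603 to 9.99, and 18.8 FPKM of Itgam against 0.07 to 4.61. Its summed nuclear FPKM was 129599.8, against 40821.4 to 95905.4 in the other D libraries. Rescaled, its Itgav was 11.6, and cortex D replicate 2 was highest at 21.2. Its rescaled Itgb5, Itgb8 and Itgam, at 9.07, 17.1 and 12.4, were still the highest of D. Also in D, cortex replicate 2 held 1.06 FPKM of Itgb3 against at most 0.144, and olfactory bulb replicate 1 held 4.02 FPKM of Itga7 against at most 0.931. In A, brainstem replicate 1 held 6.41 FPKM of Itgb4 against 0.857 to 2.44, and cortex replicate 2 held 0.478 FPKM of Itga6 against 2.10 to 2.92. In E, brainstem replicate 1, the library of lowest depth, held 1.91 FPKM of Itgb4 against at most 0.533, cortex replicate 2 held 2.05 FPKM of Itga7 against at most 0.148, and cortex replicate 1 held 3.51 FPKM of Itgb2 against at most 0.518. Regions differ within each set.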

How the results depend on the processing

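Of the 9 genes tested in B against the other letters, the 7 called as deposited became 4 rescaled, 3 after quantile normalization, 3 when the run of library numbers was a term, 3 in the first run alone, 4 rescaled without brainstem D replicate 2 and cortex E replicate 2, and 2 (Itgam and Itgb2) rescaled without the libraries of fewer than 5000 genes. For E, 7 became 1 rescaled, 0 after quantile normalization, 0 with the run term, 0 without the libraries of fewer than 5000 genes, 4 with the most abundant transcript per gene, 4 with whole-gene rows, and, rescaled, 1 without the 2 libraries named and 0 without those of fewer than 5000 genes; in the last, Itgb1 turned to 0.40 (limma, adjusted p = 0.469). For A to E against Neg, 6 became 0 rescaled, 0 after quantile normalization, 0 without the libraries of fewer than 5000 genes, 0 in both rescaled combinations, 1 with the most abundant transcript, 2 with the run term and 3 with whole-gene rows. The run term rests on cortex A, brainstem A and brainstem B alone, and for E it does not separate run from population. C, with none, had 2 with array weights and 1 with whole-gene rows. Brainstem against cortex, with 1, had 0 in the first run and 0 with whole-gene rows, where Itgb4 stood at -0.14. Brainstem against olfactory bulb, with none, had 1 after quantile normalization and 1 with the most abundant transcript. Olfactory bulb against cortex, with none, had 1 in the first run, 1 without the 2 libraries named and 2 when these were left out and the rest rescaled.

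With each library left out in turn, the number called ranged from 0 to 0 in A, 4 to 8 in B, 0 to 2 in C, 0 to 2 in D, 4 to 8 in E, 1 to 6 for A to E against Neg, 0 to 1 in olfactory bulb and 1 to 1 in brainstem against cortex, 0 to 1 in brainstem against olfactory bulb, and 0 to 0 for the interaction. The first run gives no value for D, E or the interaction, and leaving out the libraries of fewer than 5000 genes none for the interaction. Causes of these changes were not tested. No paired analysis was possible because the labels give the libraries no replicate numbers. A FPKM near 1 rests on few fragments in the 2 shallow E libraries, so low values there limit what can be seen.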
